A study of Arabidopsis thaliana with 24 samples.

Results

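RNA levels were compared between unopened flower buds of urt1-1 and of WT plants of Arabidopsis thaliana. The 6 libraries were taken from the 24 of the series by their labelled tissue and genotype, 3 of urt1-1 and 3 of WT. The urt1-1 plants carry a T-DNA insertion in URT1, from 1 previously described line, and WT plants are Col-0, the accession of all plants in the series. Buds were collected 2 weeks after flowering began, from at least 5 plants for each biological replicate. Other libraries served for comparison, each group with 3 replicates. They are buds labelled heso1-4 urt1-1 and heso1-4, which by label carry a T-DNA insertion in HESO1 with and without the one in URT1, and dry mature seeds of urt1-1 and WT, collected 8 weeks after flowering began. RNA was extracted from seeds by another method than from buds, so effects of tissue cannot be told apart from those of extraction.

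URT1 is a terminal uridylyltransferase, an enzyme that attaches uridines to mRNAs at their 3′ end once the poly(A) tail has become short. In Arabidopsis it is the main enzyme that uridylates mRNAs, and uridine tails are known to limit further trimming of the tail and to mark RNAs for decay. HESO1 is the related enzyme best known for uridylating small RNAs. Loss of URT1 together with the 5′ to 3′ exonuclease XRN4 is known to let small interfering RNAs form from mRNAs.

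Total RNA depleted of ribosomal RNA was sequenced, and the reads were counted over whole gene spans. Total counts on genes ranged from 23787015 to 31536006 in the urt1-1 libraries and from 27790775 to 34537256 in the WT libraries. In a principal component analysis of the 12 flower libraries the first component held 40.5% of the variance and separated libraries by replicate number, with urt1-1 replicate 1 at -84.7 and WT replicate 1 at -37.2. Plastid genes took 23.98% ± 2.50 of counts in urt1-1 and 24.4% ± 3.09 in WT (SD, n = 3 each). The difference of -0.387 percentage points had p = 0.9 in a two-sided exact permutation test, whose smallest possible p is 0.1 here. It was 0.862 points without urt1-1 replicate 1 and 0.859 without WT replicate 2. Mitochondrial genes took 1.38% ± 0.181 in urt1-1 and 1.40% ± 0.192 in WT (SD, n = 3 each), with p = 0.7 in the same exact permutation test.

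URT1 RNA fell in urt1-1 buds. URT1 lies at chr2:18792864-18795904 on the plus strand (TAIR10). It had 2.79, 2.56 and 1.89 CPM in urt1-1 buds, against 42.7, 53.8 and 45.2 CPM in WT buds, where CPM is the count scaled to the library's size. The groups did not overlap, and every urt1-1 library kept a low, measurable level. The log2 fold change was -4.29 ± 0.16 (SE), with an adjusted p of 3.29e-07 by edgeR's quasi-likelihood test. In other bud libraries URT1 averaged 2.49 ± 0.186 CPM in those labelled heso1-4 urt1-1 and 47.8 ± 1.19 CPM in those labelled heso1-4 (SD, n = 3 each), a log2 fold change of -4.26 ± 0.16. Counts cover the whole gene, so they do not tell on which side of the insertion the remaining RNA lies.

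HESO1 RNA did not pass the test. HESO1 had 14.3, 11.7 and 14.7 CPM in urt1-1 buds, against 14.2, 14.2 and 13.4 CPM in WT buds. The groups overlapped, with a log2 fold change of -0.04 ± 0.19 (SE) and a 95% interval from -0.45 to 0.37. In the libraries labelled heso1-4 urt1-1 and heso1-4, HESO1 averaged 65.1 and 805 CPM, above the WT level. This goes against what an insertion in the gene would be taken to do, so these labels are used here as names of libraries.

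Besides URT1, 1 gene of the 22841 tested passed the threshold, an adjusted p under 0.05 over all genes tested. It was AT1G64795, which rose, so 0.00438% of genes were called higher and 0.00438% lower in urt1-1. The fit with the replicate number as a block also called these 2 genes and no other. At an unadjusted p under 0.05 edgeR counted 593 genes (2.6%), 347 higher and 246 lower, and the fit with the replicate block counted 1557 (6.82%). DESeq2 called 5 genes higher (0.0219%) and 1 lower (0.00438%) after adjustment. The 3 urt1-1 libraries lay above all 3 WT libraries for 779 genes (3.41%) and below them for 755 (3.31%). Over all genes tested the median log2 fold change was 0.01 and the quartiles were -0.11 and 0.15. The 95% interval lay within 1 log2 unit of 0 for 16363 genes (71.6%). Of the 13110 genes with a group mean of at least 10 CPM it did so for 11941 (91.1%).

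**Figure D1:**
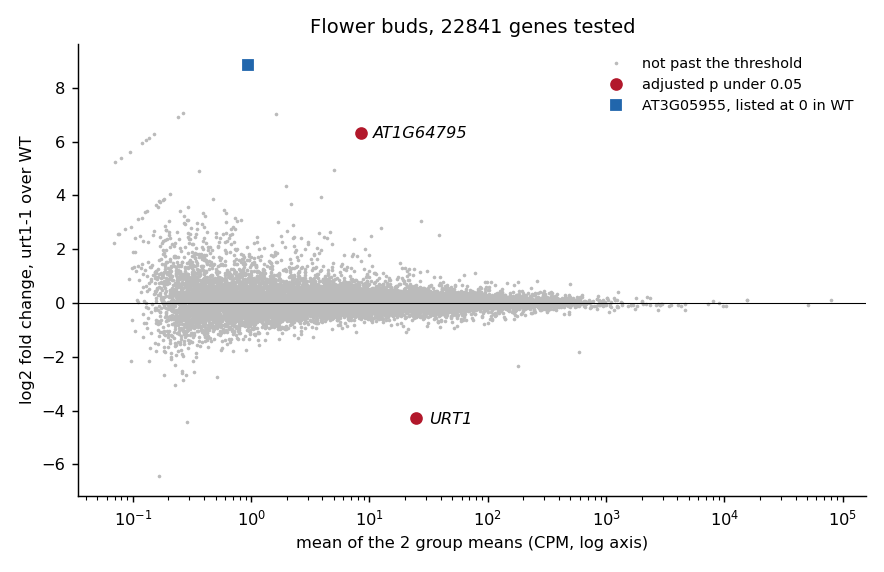
Log2 fold change of urt1-1 over WT in flower buds against mean level (CPM, log axis), 1 point per gene tested. The red points are the 2 genes past the threshold, URT1 at -4.29 and AT1G64795 at 6.32, and the blue square is AT3G05955, which had no count in WT.

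AT1G64795 is annotated as a short protein-coding gene with an uncharacterised product, at chr1:24082579-24082848 on the plus strand. Its coding exons run from 24082579 to 24082746 and from 24082816 to 24082848, and it lies inside the span of ILA (AT1G64790, chr1:24064822-24083428), which is read from the opposite strand. The whole span is shown because it is the transcript called higher in urt1-1 buds. The sequence is that of RefSeq, assembly TAIR10.1, and capitals mark the coding exons.
AT1G64795: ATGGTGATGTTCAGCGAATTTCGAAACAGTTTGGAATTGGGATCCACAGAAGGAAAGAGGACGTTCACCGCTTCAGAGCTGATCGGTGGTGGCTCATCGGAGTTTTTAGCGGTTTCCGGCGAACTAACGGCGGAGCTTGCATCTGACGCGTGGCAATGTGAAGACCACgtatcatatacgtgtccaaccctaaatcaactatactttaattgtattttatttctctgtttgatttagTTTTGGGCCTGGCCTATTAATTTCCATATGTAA
Of its 270 bases 201 are coding, and 43.7% are G or C. A search of the genome found 1 other match, with 78.2% identity over 87 bases, on chromosome 5.

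AT1G64795 was near 0 in WT buds and at a moderate level in urt1-1 buds. Its raw counts were 523, 450 and 450 in urt1-1 buds and 12, 5 and 3 in WT buds. It had 15.9, 18.6 and 15.5 CPM in urt1-1 buds, against 0.328, 0.184 and 0.0895 CPM in WT buds. Every urt1-1 library lay far above every WT library. The log2 fold change was 6.32 ± 0.44 (SE), with an adjusted p of 1.66e-04 by edgeR and a 95% interval from 5.36 to 7.28. ILA, whose protein takes part in translation control and plant immunity, had 273, 217 and 268 CPM in urt1-1 buds, against 289, 249 and 301 CPM in WT buds, at -0.15 ± 0.13 on the log2 scale. The 3 annotated genes on each side of AT1G64795, ILA among them, had overlapping groups.

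In buds labelled heso1-4 urt1-1, which carry the URT1 insertion as well, AT1G64795 stayed low. These had 0.374, 0.211 and 0.144 CPM, and buds labelled heso1-4 had 0.151, 0.0596 and 0.0544 CPM. The log2 fold change between them was 1.46 ± 0.57 (SE, adjusted p = 1.0 by edgeR). Set directly against buds labelled heso1-4 urt1-1, a comparison added after the values were seen, urt1-1 buds were higher with an adjusted p of 4.35e-04 by edgeR, the 1 gene called higher there (0.00438%). The difference between the log2 fold changes of urt1-1 over WT and of heso1-4 urt1-1 over heso1-4 was 4.86 ± 0.81 (SE). It had an adjusted p of 0.957 by edgeR, which called 1 gene higher (0.00438%), and of 7.16e-06 by DESeq2, which called 3 (0.0131%). In seeds AT1G64795 also rose, with 165, 109 and 147 CPM in urt1-1 and 3.47, 4.81 and 3.47 CPM in WT, a log2 fold change of 5.15 ± 0.28 (SE, adjusted p = 2.77e-06 by edgeR).

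AT3G05955 had a like pattern at a lower level. It is annotated as a long noncoding RNA at chr3:11586005-11586548 on the minus strand. Its first 300 bases, chr3:11586249-11586548 of RefSeq's TAIR10.1 assembly, are shown because the gene has relatives elsewhere in the genome, and capitals mark what aligns with the nearest of them.
AT3G05955: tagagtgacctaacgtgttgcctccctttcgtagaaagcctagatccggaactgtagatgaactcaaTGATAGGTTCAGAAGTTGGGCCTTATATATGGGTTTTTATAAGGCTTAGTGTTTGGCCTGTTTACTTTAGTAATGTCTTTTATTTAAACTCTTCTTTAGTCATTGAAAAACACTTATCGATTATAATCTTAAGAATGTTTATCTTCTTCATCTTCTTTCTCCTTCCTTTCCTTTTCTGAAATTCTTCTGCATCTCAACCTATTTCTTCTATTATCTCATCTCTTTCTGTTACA
That relative, at chr3:11578845-11579094, shares 93.5% of 263 aligned bases, and there were 28 matches in all, so which copy some reads came from is uncertain. Raw counts were 56, 40 and 67 in urt1-1 buds and 0 in each WT bud library. Buds labelled heso1-4 urt1-1 had counts of 2, 0 and 1, and buds labelled heso1-4 had 0, 4 and 2. With 3 counts over the 3 WT libraries together as a floor, the level in urt1-1 buds was at least 61.1-fold higher than in WT buds. The adjusted p was 0.328 by edgeR, 0.179 with the replicate block and 3.18e-06 by DESeq2, so the call depended on the tool. In seeds the counts were 29, 27 and 17 in urt1-1 and 0 in each WT library, at least 17.8-fold higher by the same floor. There the adjusted p was 0.319 by edgeR and 0.0409 with the replicate block, and 0.0152 by DESeq2.

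Among all 33243 genes listed, AT1G64795 and AT3G05955 were the 2 in which every urt1-1 bud library exceeded every other bud library by more than 5 times, with a mean of at least 0.3 CPM in urt1-1. No gene met the mirror condition. Both conditions were set after the values were seen. The urt1-1 plants are from 1 line, so effects of the URT1 insertion cannot be told apart from other differences of that line.

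**Figure D2:**
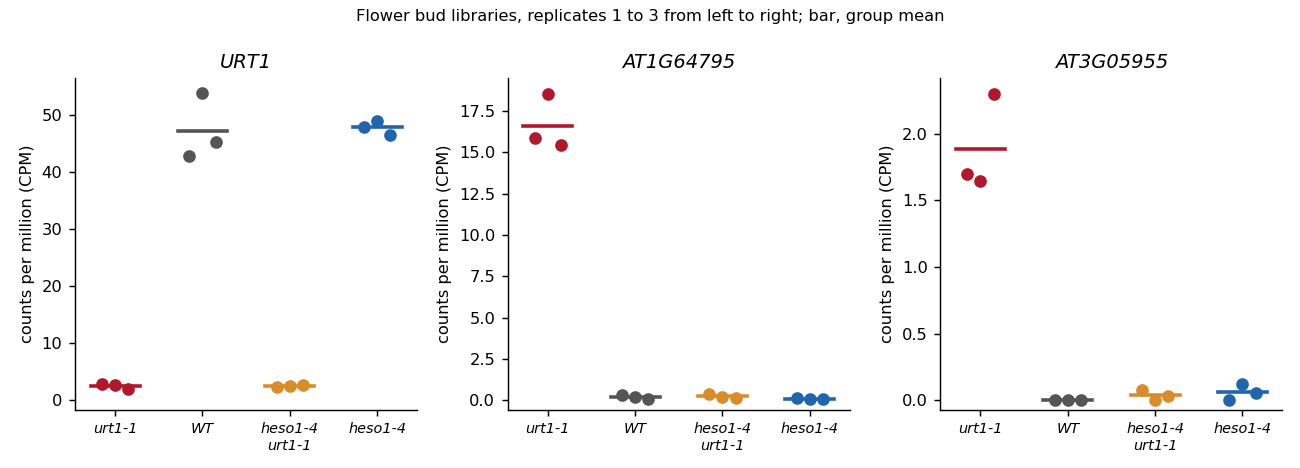
CPM of URT1, AT1G64795 and AT3G05955 in each flower bud library by genotype label. Points are replicates and bars are group means. URT1 is low in both groups with the URT1 insertion, at means of 2.41 CPM in urt1-1 and 2.49 CPM in heso1-4 urt1-1, while AT1G64795 and AT3G05955 are high in urt1-1, at means of 16.6 and 1.88 CPM, and near 0 in the other groups.

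AT2G45630, the gene that follows URT1 on the chromosome, had lower values. It lies at chr2:18795926-18797263 and is annotated as a hydroxyacid dehydrogenase. It had 6.07, 5.69 and 4.60 CPM in urt1-1 buds, against 6.62, 9.57 and 8.11 CPM in WT buds. The groups did not overlap, but the log2 fold change of -0.57 ± 0.18 (SE) did not pass, with an unadjusted p of 0.00868 and an adjusted p of 1.0 by edgeR. It was -0.72 ± 0.18 in buds labelled heso1-4 urt1-1 over heso1-4. In seeds it averaged 0.193 CPM in urt1-1 and 1.64 CPM in WT, at -3.09 ± 0.63, with an adjusted p of 0.319 by edgeR and 0.0289 with the replicate block, a fit that called 0.0948% of genes lower there. By DESeq2 it was 4.45e-04. The other 5 annotated neighbours of URT1 had overlapping groups, among them SAP18, which encodes a partner of histone deacetylases, at 0.12 ± 0.13.

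A further 8 genes in each direction had the smallest unadjusted p among those whose groups did not overlap, and none of these passed edgeR's test. The higher ones were led by AT3G05955. AT2G33850, an E6-like protein gene, had 70.2, 68.5 and 86.1 CPM in urt1-1 buds, against 44.0, 49.8 and 46.4 CPM in WT buds. Its log2 fold change was 0.68 ± 0.11 (SE), with an adjusted p of 0.386 by edgeR and 1.64e-04 by DESeq2. EFE, an enzyme of the last step of ethylene synthesis, had 48.1, 29.0 and 49.6 CPM in urt1-1 buds, against 19.5, 22.1 and 14.6 CPM in WT buds. It was at 1.17 ± 0.24 (adjusted p = 0.0271 by DESeq2 and 1.0 by edgeR). ARFA1E, a small GTPase of vesicle budding, had 295, 341 and 317 CPM in urt1-1 buds, against 229, 258 and 233 CPM in WT buds, at 0.41 ± 0.10 (adjusted p = 0.00962 by DESeq2 and 1.0 by edgeR). That the groups stood apart in each of these genes follows from the rule that picked them. The homeobox gene KNAT4 was at 0.43 ± 0.11, the calcium-binding protein gene AT5G28830 at 0.64 ± 0.13, and the uncharacterised genes AT1G65720 and AT1G01730 at 0.42 ± 0.10 and 0.38 ± 0.09.

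Of the lower genes, MEI1 and ASY2 have known ties to meiosis. MEI1, which is needed for male meiosis, had 9.89, 12.9 and 12.2 CPM in urt1-1 buds, against 17.38, 15.2 and 18.22 CPM in WT buds, at -0.54 ± 0.13 (SE). ASY2, a relative of the meiotic axis protein ASY1, had 7.83, 8.37 and 6.63 CPM in urt1-1 buds, against 10.8, 11.3 and 11.7 CPM in WT buds, at -0.57 ± 0.15. Neither passed under any of the 16 alternative settings. The gene for nMAT1, which splices mitochondrial introns, was at -0.64 ± 0.17, and the ATPase family gene AT5G45720 at -0.48 ± 0.13. The other 4, AT5G49260, AT2G10930, AT5G13130 and AT5G56570, averaged 1.096 to 1.63 CPM in WT buds, with log2 fold changes from -1.79 to -1.32.

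Buds labelled heso1-4 urt1-1 and heso1-4 share no library with the urt1-1 and WT buds, though they carry the same replicate numbers and entered the same fit. In that pair edgeR called 0 genes higher (0%) and 3 lower (0.0131%), with 362 higher and 282 lower at an unadjusted p under 0.05 (2.82% together). Of the 11769 genes given an adjusted p, against 22815 for urt1-1 over WT, DESeq2 called 22 higher (0.187%) and 7 lower (0.0595%). Of the 8 higher genes, 6 pointed the same way there and 3 of these had an unadjusted p under 0.05, where 51.1% of all genes tested were higher and 1.58% were so with such a p. They were ARFA1E at 0.48 ± 0.10 (SE), AT1G65720 at 0.47 ± 0.10 and AT2G33850 at 0.31 ± 0.11. Of the 8 lower genes, 4 pointed the same way and 0 had such a p, MEI1 being at -0.25 ± 0.13 and ASY2 at 0.14 ± 0.15. In seeds 3 of the 7 higher genes measured there and 1 of the 4 lower ones pointed the same way. Of the higher ones, ARFA1E was at 0.47 ± 0.12 and AT1G65720 at 0.49 ± 0.16 in urt1-1 over WT. For ARFA1E the adjusted p in seeds was 0.0416 by edgeR with the replicate block, a fit that called 0.407% of genes higher, and 0.525 without it. For AT1G65720 these were 0.0449 and 0.578 by edgeR.

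**Figure D3:**
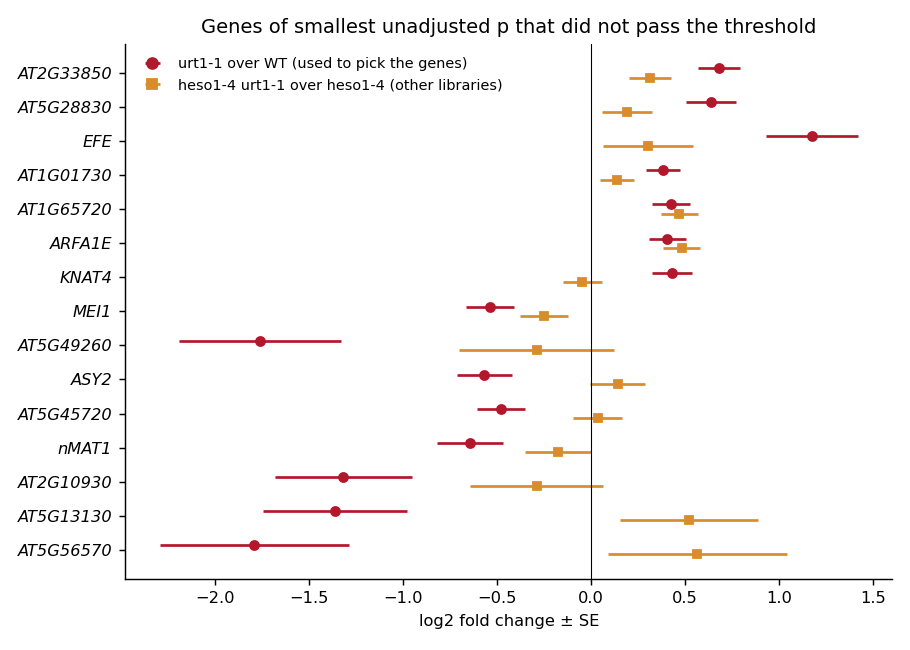
Log2 fold change with its SE of the genes of smallest unadjusted p, in urt1-1 over WT buds and in buds labelled heso1-4 urt1-1 over heso1-4. AT3G05955 is left out because it had no count in WT. ARFA1E is at 0.41 and 0.48 in the 2 comparisons, while of the 8 lower genes 4 lie below 0 in the second.

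Over all genes, 50 were higher at an unadjusted p under 0.05 in both pairs of groups. They are 14.4% of the 347 in urt1-1 over WT and 13.8% of the 362 in the other pair, where 1.58% of all genes tested were higher with such a p. Lower in both were 13 genes, URT1 itself among them, 5.28% of the 246 and 4.61% of the 282, beside 1.23% of all genes. Both pairs took each gene's spread from 1 fit, so their p values are not independent, here and for the genes of smallest p above. The shares of all genes are thus no measure of the overlap without a common effect. Genes that moved in opposite directions at such a p were not counted. The following genes were chosen for small p in both after the values were seen. TCTP, a conserved growth regulator, had 324, 350.0 and 318 CPM in urt1-1 buds, against 254, 282 and 230.2 CPM in WT buds, at 0.37 ± 0.11 (SE) here and 0.39 ± 0.11 in the other pair. The actin gene ACT8 had 223, 208 and 246 CPM in urt1-1 buds, against 184, 175 and 161 CPM in WT buds, at 0.38 ± 0.12 and 0.46 ± 0.12. Both are abundant and their groups stood apart. CID3, which carries a motif that binds poly(A)-binding protein, was at 0.30 ± 0.09 and 0.31 ± 0.09, and HPT1, an enzyme of tocopherol synthesis, at -0.31 ± 0.10 and -0.36 ± 0.10. For each of these 4 the adjusted p for urt1-1 over WT was 1.0 by edgeR.

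Genes of RNA decay and small RNA pathways, and markers of tissues and responses that a bud sample can show, were read as lists. The 22 lists held 285 tested genes besides URT1, with a median log2 fold change of 0.00 beside 0.01 over all genes. EdgeR called 0 of them, with and without the replicate block, and DESeq2 also called 0. At an unadjusted p under 0.05 there were 6 (2.11%), beside 2.6% of all genes tested, and with the replicate block 19 (6.67%), beside 6.82% of all genes. The groups stood apart for 3 genes that were above WT (1.05%) and 6 that were below (2.11%), beside 3.41% and 3.31% of all genes.

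The RNA decay machinery lay close to 0 on the log2 scale. The other 9 terminal nucleotidyltransferase genes ranged from -0.18 to 0.12. Of these, AT2G40520 at 0.12 ± 0.52 (SE) and AT3G45760 at 0.01 ± 0.74 had 95% intervals that reached beyond 1 unit from 0. The 14 decapping and 5′ to 3′ decay genes lay between -0.17 and 0.18, each with a 95% interval within 1 unit of 0. Among them were the helicase RH12 at -0.17 ± 0.10 (SE), the decapping scaffold relative VCR at -0.16 ± 0.10, the decapping activator PAT1 at -0.12 ± 0.09 and LSM1A, a subunit of the LSM ring, at 0.18 ± 0.11. The 12 exosome, SKI complex and 3′ decay genes had a median of -0.09, again each with its interval within 1 unit of 0. Of these MTR4, the helicase of the nuclear exosome, had 49.8, 48.5 and 51.6 CPM in urt1-1 buds, against 53.7, 53.3 and 57.6 CPM in WT buds, at -0.13 ± 0.09, and its groups stood apart. RRP44A, an exosome nuclease, was at -0.12 ± 0.10 and the helicase SKI2 at -0.09 ± 0.10. In nonsense-mediated decay the helicase UPF1 was at -0.05 ± 0.10.

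Deadenylation and poly(A)-binding genes had a median of 0.00 over 11 genes. The deadenylase CAF1A was the highest, with 14.1, 16.4 and 5.74 CPM in urt1-1 buds, against 4.52, 13.1 and 2.92 CPM in WT buds. Its groups overlapped, and the fold change was 0.83 ± 0.58 (SE), or 0.89 ± 0.44 with the replicate block (adjusted p = 0.763 by edgeR). CAF1A was higher in urt1-1 in all 3 same-numbered pairs, a pattern not counted over all genes. It pointed the other way in the other pair of bud groups, at -0.20. The poly(A)-binding protein genes PAB4 and PAB3 were at -0.13 ± 0.11 and -0.40 ± 0.33 in urt1-1 over WT buds.

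The 18 genes of the small RNA machinery had a median of -0.07. DCL3, the dicer that makes small RNAs which direct DNA methylation, had 34.9, 48.4 and 61.5 CPM in urt1-1 buds, against 62.5, 59.4 and 105 CPM in WT buds. The groups overlapped, and the fold change of -0.65 ± 0.29 (SE) had an unadjusted p of 0.0458 and an adjusted p of 1.0 by edgeR. In all 3 same-numbered pairs urt1-1 was lower, a pattern not counted over all genes. With the replicate block the value was -0.64 ± 0.12 (adjusted p = 0.517 by edgeR). DCL3 was at -0.12 in buds labelled heso1-4 urt1-1 over heso1-4. DCL2, AGO7 and DCL1, the dicer of miRNAs, were at -0.24 ± 0.14, -0.20 ± 0.12 and -0.17 ± 0.10. The 4 mRNAs known to form small interfering RNAs when decay is impaired were also read, and 0 had an unadjusted p under 0.05. The nitrate reductase gene NIA1 had 101, 52.6 and 36.3 CPM in urt1-1 buds, against 58.3, 50.2 and 36.2 CPM in WT buds, at 0.39 ± 0.34, and its partner NIA2 was at 0.21 ± 0.37. Without urt1-1 replicate 1, and with WT replicate 1 kept, they were at -0.12 and -0.13, and with the replicate block at 0.33 ± 0.19 and 0.14 ± 0.32. SMXL5 and SMXL4 were at -0.12 ± 0.16 and -0.09 ± 0.13.

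Targets of miRNAs and tasiRNAs had a median of -0.07 over the 43 tested of 44. ARF6, an auxin response factor that acts in flower maturation, had 156, 142 and 171 CPM in urt1-1 buds, against 190.2, 203 and 173 CPM in WT buds, at -0.27 ± 0.12 (SE, unadjusted p = 0.0375). It was the 1 target of the 43 tested whose groups did not overlap. Over all genes tested, 3.31% had every urt1-1 bud library below every WT bud library. In the other pair of bud groups ARF6 pointed the other way, at 0.11. In urt1-1 over WT buds the growth regulator GRF2 was at -0.49 ± 0.19 (unadjusted p = 0.0268 by edgeR), SPL15, a promoter of flowering, at -0.47 ± 0.25, and ARF17 at -0.26 ± 0.15. In the other pair GRF2 and ARF17 also pointed the other way, at 0.14 and 0.16, and SPL15 the same way, at -0.28.

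**Figure D4:**
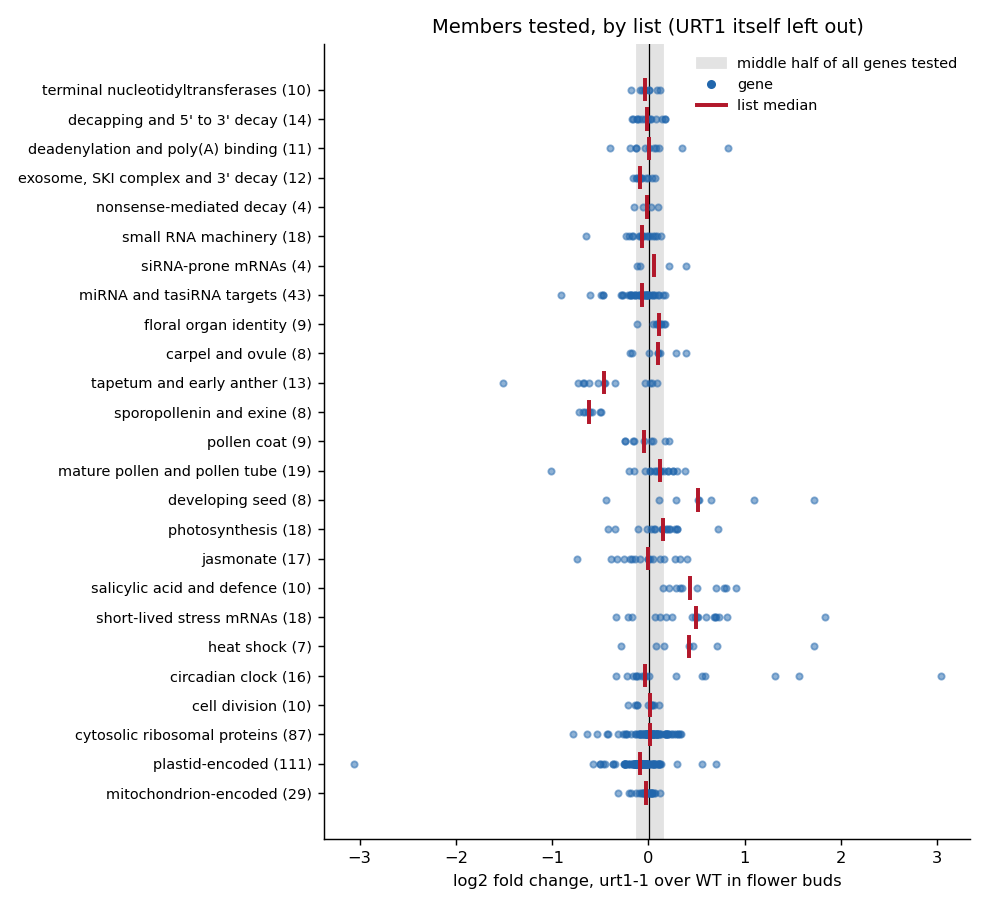
Log2 fold change of urt1-1 over WT in flower buds for each tested member of each gene list. Points are genes, red ticks are list medians, and the grey band between the quartiles of all genes tested runs from -0.11 to 0.15. The sporopollenin list, from -0.72 to -0.50, lies wholly left of the band, and the decapping list, from -0.17 to 0.18, lies close to it.

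Floral organ identity genes were expressed, as the labelled tissue would have it. SEP1, which specifies floral organs, had 79.9, 70.8 and 61.5 CPM in urt1-1 buds, against 64.7, 61.5 and 63.6 CPM in WT buds, at 0.16 ± 0.11 (SE), and the 9 tested of the 10 genes had a median log2 fold change of 0.10. Seed storage and oil body genes were at trace levels, with summed levels over 11 genes of 6.77, 8.12 and 13.9 CPM in urt1-1 buds and 8.32, 6.37 and 6.86 CPM in WT buds. Within them the storage protein gene CRU2 had 0.273, 0.412 and 0.344 CPM in urt1-1 buds, against 0.164, 0.0736 and 0.0597 CPM in WT buds, at 1.72 ± 0.58 (unadjusted p = 0.0127). The median was 0.10 for carpel and ovule genes, 0.01 for cell division genes and 0.15 for photosynthesis genes.

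Genes for the outer pollen wall had lower values in urt1-1, and the spread between libraries was wide. All 8 genes for sporopollenin, the polymer of that wall, lay between -0.72 and -0.50 on the log2 scale, while edgeR and DESeq2 called 0 of them. By edgeR 0 had an unadjusted p under 0.05, and 2 with the replicate block, a fit in which 6.82% of all genes had such a p. CYP703A2, a hydroxylase of sporopollenin precursors, had 8.32, 38.1 and 40.3 CPM in urt1-1 buds, against 29.4, 29.99 and 83.2 CPM in WT buds, at -0.72 ± 0.63 (SE). The exporter ABCG26, the reductase TKPR1 and the polyketide synthase PKSB were at -0.68 ± 0.55, -0.66 ± 0.48 and -0.63 ± 0.59. Summed over the 8 genes, the level was 157, 604 and 679 CPM in urt1-1 buds and 496, 499 and 1180 CPM in WT buds. Replicate 1 of urt1-1 was lowest and replicate 3 of WT highest, with the other 4 libraries between 496 and 679 CPM. The median of the list was -0.62. Leaving out urt1-1 replicate 1 gave -0.17, and leaving out WT replicate 3 gave -0.05. In buds labelled heso1-4 urt1-1 over heso1-4 it was -0.33. In bulk tissue fewer cells of a type and less RNA per cell cannot be told apart.

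Tapetum and early anther genes had a median of -0.46 over the 13 tested of 14, and their summed level was 198, 447 and 523 CPM in urt1-1 buds and 400.3, 356 and 729.7 CPM in WT buds. TDF1, a regulator of tapetum development, had 0.0607, 0.577 and 0.344 CPM in urt1-1 buds, against 0.739, 0.736 and 1.28 CPM in WT buds, at -1.51 ± 0.63 (SE, unadjusted p = 0.0347). It was the 1 member of the 13 tested whose groups did not overlap, where 3.31% of all genes tested had every urt1-1 library below every WT library. In the other pair of bud groups TDF1 was at -0.07. Without urt1-1 replicate 1 the median of the list was -0.12, and without WT replicate 3 it was 0.00. The transcription factors bHLH089 and bHLH010 were at -0.68 ± 0.44 and -0.52 ± 0.39, and A6, a glucanase-like protein of the tapetum, at -0.74 ± 0.48. The median was -0.04 for pollen coat genes and 0.12 for mature pollen genes, or -0.30 and 0.09 with the replicate block. HAP2, a sperm protein needed for gamete fusion, had 0.668, 0.619 and 0.550 CPM in urt1-1 buds, against 1.29, 1.18 and 1.25 CPM in WT buds, at -1.01 ± 0.44 (unadjusted p = 0.0412). It went against the median of the mature pollen list and was the 1 member of the 19 tested whose groups did not overlap. Of all genes tested, 3.31% lay below WT in this way. In the other pair of bud groups HAP2 was at 0.19. The make-up of bud stages in each library is not stated in the labels, and its part in these values was not tested.

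**Figure D5:**
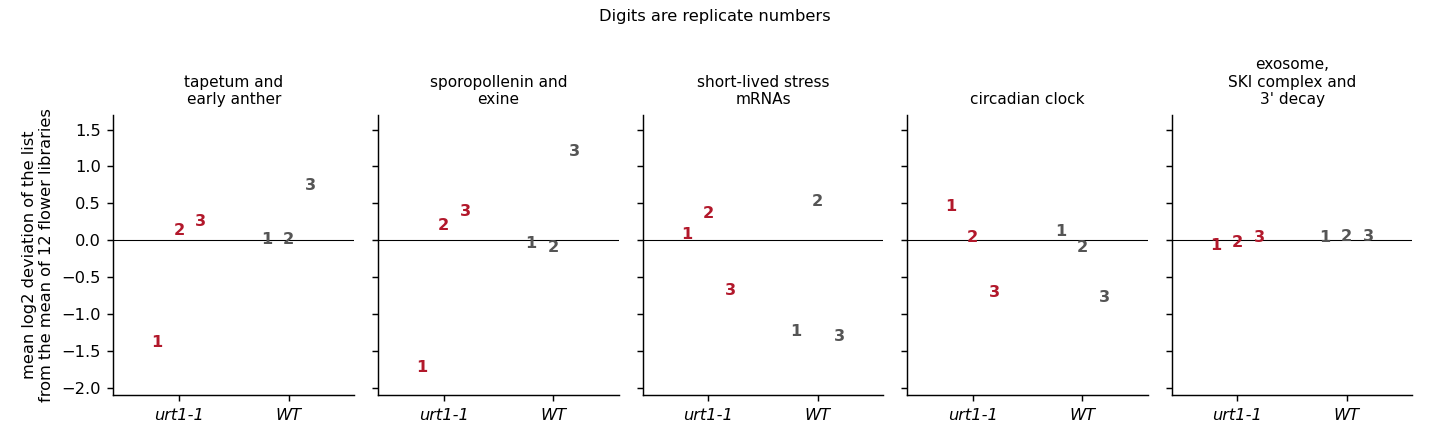
Mean log2 deviation of 5 gene lists in each urt1-1 and WT bud library, with digits for replicate numbers. Replicate 1 of urt1-1 is at -1.40 for the tapetum list and -1.72 for the sporopollenin list, and WT replicate 3 is at 0.74 and 1.204.

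Stress and defence genes had wide errors. The 18 short-lived stress mRNAs had a median of 0.49, with the zinc finger genes ZAT12 at 0.74 ± 0.37 (SE) and ZAT10 at 0.60 ± 0.55. The defence regulator WRKY40 had 11.5, 10.7 and 5.94 CPM in urt1-1 buds, against 2.19, 12.5 and 1.49 CPM in WT buds, at 0.82 ± 0.65, so WT replicate 2 lay above every urt1-1 library. Without WT replicate 2 the median of the list was 1.51, and in buds labelled heso1-4 urt1-1 over heso1-4 it was -0.53. The 10 tested of 12 salicylic acid and defence genes had a median of 0.43 here and -0.11 in the other pair. Among them PAD4, a hub of immune signalling, was at 0.78 ± 0.48, its partner EDS1 at 0.33 ± 0.28 and WRKY70 at 0.81 ± 0.63. The 7 tested of 14 heat shock genes had a median of 0.42, with HSFA2 at 1.72 ± 0.92 and at most 0.455 CPM in any of the 6 libraries. Jasmonate genes had a median of -0.01, with the repressor JAZ10 at 0.16 ± 0.14 and the synthesis enzyme LOX2 at -0.33 ± 0.30.

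The 16 clock genes had a median of -0.04, and 0 of them had groups that stood apart. The 3 with the highest fold changes, LHY, CCA1 and RVE8, were high in replicate 1 of both genotypes. LHY, a core clock regulator, had 141, 3.22 and 2.51 CPM in urt1-1 buds, against 13.5, 2.72 and 1.49 CPM in WT buds. Its partner CCA1 had 75.6, 6.02 and 3.16 CPM in urt1-1 buds, against 24.4, 5.999 and 3.76 CPM in WT buds, and RVE8, a related activator, had 34.2, 2.80 and 0.893 CPM in urt1-1 buds, against 10.2, 1.47 and 1.13 CPM in WT buds. The log2 fold changes were 3.04 ± 2.00 (SE), 1.31 ± 1.38 and 1.56 ± 1.57 in that order. With the replicate block they were 1.79 ± 0.61, 0.63 ± 0.38 and 1.07 ± 0.44, with adjusted p values by edgeR of 0.707, 0.794 and 0.717. LHY was higher in urt1-1 in all 3 same-numbered pairs, a pattern not counted over all genes. Without urt1-1 replicate 1, and with WT replicate 1 kept, the 3 fold changes were -1.07, -1.32 and -1.24. In buds labelled heso1-4 urt1-1 over heso1-4 they were 0.14, -0.006 and 0.09. The hour of collection is not stated in the labels, and its part in these values was not tested.

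The fold change of urt1-1 over WT in buds was also set against that in seeds in a fit of all 24 libraries. In seeds edgeR called 4 genes higher (0.0223%) and 1 lower (0.00557%) in urt1-1 over WT, and DESeq2 called 12 (0.0669%) and 3 (0.0167%). The difference between tissues passed edgeR's test for 0 genes in either direction (0%), with 1292 at an unadjusted p under 0.05 (5.48%), while DESeq2 called 5 higher (0.0212%) and 1 lower (0.00425%). URT1 averaged 2.63 CPM in urt1-1 seeds and 108 CPM in WT seeds, and its log2 fold change differed between tissues by 1.04 ± 0.17 (SE, adjusted p = 0.0922 by edgeR). For AT1G64795 the difference was 1.12 ± 0.49 (adjusted p = 0.878 by edgeR).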

How the data were processed

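Unopened flower buds were profiled by stranded total RNA sequencing after ribosomal RNA depletion, from 500 ng of DNase-treated RNA with paired reads of 50 bases, per the labels' protocols. The authors deposited raw counts per gene. Per the file headers, featureCounts 2.0.6 counted reverse-stranded reads over whole gene spans, introns included, and counted a read that overlaps several genes for each of them. HISAT2 2.2.1 and the TAIR10 build are named per the submitters' processing notes. The headers leave unclear if single reads or read pairs were counted; 66.7% to 73.2% of counts from 1 to 20 in the 6 libraries were even.

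Counts of the 12 flower libraries (4 groups of 3) were fitted in R 4.3.3 with edgeR 4.0.16 and limma 3.58.1: TMM scaling, genes kept by filterByExpr (minimum count 10, total 15), 1 mean per group, robust quasi-likelihood tests, prior count 0.125 and Benjamini-Hochberg adjustment over all genes tested (threshold 0.05). CPM uses the TMM-scaled library sizes. Seeds had a fit of their own 12 libraries, and the difference between tissues a fit of all 24. The fitting code was also run on simulated data. There the block was fitted only where a replicate effect was simulated, so the main fit was not tried on such an effect. Alternatives were DESeq2 1.42.0, its size factors (RLE), no filter, a 1 CPM filter, halved counts, 2 groups only, no organellar genes, no 2 largest genes, a replicate block, and each library left out. Deviations of same-numbered urt1-1 and WT libraries had r = 0.60, 0.13 and 0.44, against -0.50 to 0.11 for libraries of unlike number. The main test did not use this pairing, and the fit with the replicate block did. Replicate pairs differed by far more than sampling noise (chi-square per degree of freedom 38.0 to 99.8). The labels call the replicates biological.

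Genes named are URT1, HESO1, genes past the threshold without overlap and at 1 CPM or more, then 8 per direction by smallest p, up to 4 per list, and 3 neighbours per side. The members and lists were chosen with earlier results of these data known. Of 33243 gene IDs 33056 matched RefSeq's TAIR10.1 annotation, 33055 with the same start and end. Matches in the genome were searched with BLAST 2.17.0 (E-value 0.001), and figures were drawn with matplotlib 3.10.9.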

Additional observations from a re-analysis of the deposited data

Results flagged for a closer look

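The fold change of urt1-1 over WT buds was set against that of buds labelled heso1-4 urt1-1 over heso1-4. The difference passed for HESO1 by edgeR and for HESO1, AT1G64795 and AT3G05955 by DESeq2. HESO1 differed by 3.59 on the log2 scale (adjusted p = 6.89e-04 by edgeR), in libraries where its RNA went against the label. AT1G64795 differed by 4.84 by DESeq2 (adjusted p = 7.16e-06), against an adjusted p of 0.957 by edgeR and 0.575 with the replicate block. AT3G05955 differed by 9.21 by DESeq2 (adjusted p = 0.00226), against 1.0 by edgeR and 0.851 with the replicate block, a fitted value that is no bound because all WT buds had a count of 0.

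The effect of urt1-1 over WT differed between buds and seeds for 6 genes by DESeq2, and for none of them by edgeR's main test. Positive values mean a higher fold change in buds. URT1 differed by 1.06, against an adjusted p of 0.0922 by edgeR. AT2G45630, its neighbour, differed by 2.57 (adjusted p = 0.624 by edgeR). AT2G34700, whose annotation names pollen allergens and extensins, differed by -2.39; it averaged 2.53 ± 0.705 CPM in urt1-1 buds and 3.37 ± 1.13 in WT buds, and 6.57 ± 1.44 CPM in urt1-1 seeds and 1.66 ± 0.255 in WT seeds (SD, n = 3 each). Its adjusted p was 0.0922 by edgeR and 0.00868 with the replicate block. The protein kinase gene ATMRK1 differed by 0.54; it averaged 29.4 ± 1.55 CPM in urt1-1 buds and 23.7 ± 1.72 in WT buds, and 41.3 ± 1.67 CPM in urt1-1 seeds and 48.2 ± 1.99 in WT seeds (SD, n = 3 each). MLS, the malate synthase of the glyoxylate cycle, differed by 1.80 (adjusted p = 0.0452 by edgeR with the replicate block); it averaged 1.12 ± 0.216 CPM in urt1-1 buds and 0.318 ± 0.165 in WT buds, and 3276 ± 110.0 CPM in urt1-1 seeds and 3297 ± 140.4 in WT seeds (SD, n = 3 each). AT5G20970, of the HSP20-like chaperone family, differed by 1.31; it averaged 5.92 ± 0.741 CPM in urt1-1 buds and 3.63 ± 0.335 in WT buds, and 1.305 ± 0.116 CPM in urt1-1 seeds and 1.98 ± 0.119 in WT seeds (SD, n = 3 each).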

How the results depend on the processing

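Both calls in urt1-1 over WT buds held under all 16 alternatives, and the count of lower genes stayed at 1. The count of higher genes was 5 with DESeq2 and 1 to 2 with 1 library left out; the second was AT5G36790, called without urt1-1 replicate 3. For heso1-4 urt1-1 over heso1-4, higher genes numbered 22 with DESeq2, 1 with the replicate block, 2 with 2 groups only and the block, and 0 to 2 with 1 library left out, and lower genes 7 with DESeq2. For urt1-1 over WT seeds, higher genes numbered 12 with DESeq2, 73 with the block, 2 with 2 groups only, 797 with 2 groups only and the block, and 2 to 4 with 1 library left out, and lower genes 3, 17 and 799 with DESeq2, the block, and 2 groups only with the block. The difference between tissues gave 5 higher and 1 lower with DESeq2, 1 and 1 with the block, and 0 to 1 higher with 1 library left out. The difference by heso1-4 label gave 3 higher with DESeq2. The replicate block changed no other call given in the report. The cause of these differences was not tested.

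The plastid share difference was 0.862, 0.859 and 0.099 points without urt1-1 replicate 1, WT replicate 2 and WT replicate 3, within a range from -2.12 to 0.862. The mitochondrial one was 0.0735 and 0.0766 without urt1-1 replicate 3 and WT replicate 2, within -0.116 to 0.0766. With 1 library left out in turn, signs also turned for HESO1 (lowest -0.10, highest 0.055), SMXL4 (-0.18 to 0.031), NIA1 (-0.12 to 0.67), NIA2 (-0.13 to 0.45), LHY (-1.07 to 4.58), RVE8 (-1.24 to 3.31), CCA1 (-1.32 to 2.56) and, in heso1-4 urt1-1 over heso1-4, AT3G05955 (-1.73 to 0.12). Of the list medians under these alternatives, 394 moved by less than their spread and 4 by more. The jasmonate median was 0.26 without WT replicate 2, and the decapping and exosome medians were -0.10 and -0.03 without urt1-1 replicate 1. With 1 library left out, the sporopollenin, tapetum and short-lived stress medians shifted by more log2 units than these, as given above. The counts thus do not show that list medians were stable. With 3 libraries a group, the median SE was 0.21 over all genes and 0.149 over genes of at least 10 CPM. Halving the counts left both counts of calls in urt1-1 over WT buds at 1.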

Other observations

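Ribosomal RNA genes differed between libraries beyond the lists. AT3G41768, an 18S gene on chromosome 3, had 86.3, 56.3 and 34.1 CPM in urt1-1 buds, against 314, 55.9 and 532 CPM in WT buds, at -2.35 ± 0.77 (SE) on the log2 scale and -3.31 ± 0.80 in buds labelled heso1-4 urt1-1 over heso1-4. The 5.8S gene AT3G41979 was at -0.91 ± 0.30 and -2.52 ± 0.31 in these comparisons. On chromosome 2 the 18S gene AT2G01010 was at 0.61 ± 0.37 and 1.93 ± 0.38. These genes share reads with near-identical copies and ribosomal RNA had been depleted, so their levels are uncertain.

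AT5G36790, of a hydrolase family, had raw counts of 297, 197 and 0 in urt1-1 buds and 2, 4 and 0 in WT buds. Buds labelled heso1-4 urt1-1 had 0, 4 and 2 and buds labelled heso1-4 had 2, 2 and 1. Replicates 1 and 2 of urt1-1 thus held nearly all of its counts. It is identical over 3446 bases to a copy at chr5:14421182-14424627, so its counts are uncertain, and it was named after its values were seen.

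By gene length, the median log2 fold change of urt1-1 over WT buds was 0.05 in the shortest of 5 groups of near-equal size of genes and -0.04 in the longest. In buds labelled heso1-4 urt1-1 over heso1-4 these medians were 0.02 and 0.03.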
